A study of Mus musculus with 6 samples.

Results

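The genes described are Olig1, Olig2, Olig3, Nkx2-1, Nkx2-2, Nkx6-1 and Nkx6-2, 7 transcription factor genes that divide the embryonic neural tube into progenitor domains. They were chosen by name, and 7 of 7 were measured, each by 1 probe set, among 19938 genes with a single symbol. RNA came from W4 cells, a line of mouse embryonic stem cells, differentiated towards neurons in F12-DMEM/Neurobasal medium. The labels give day 16 for all 6 arrays. The medium held bFGF, laminin, insulin, BSA, β-mercaptoethanol and the supplements B27 and N2. The 3 VPA arrays were from cultures kept in 300 uM valproate (VPA) throughout, and the 3 PBS arrays from cultures kept in the solvent, phosphate-buffered saline. Valproate is an antiepileptic drug, a histone deacetylase inhibitor and a developmental neurotoxicant. The series text calls the arrays of a group biological replicates. All 6 share 1 cell line, and each array holds a whole culture, so a lower signal cannot be told apart as fewer cells of a type or less RNA per cell.

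In the ventral neural tube, Sonic hedgehog made by the floor plate sets up bands of progenitors. NKX2-2 marks the band next to the floor plate, which gives visceral motor neurons and then serotonergic neurons in the hindbrain and ventral interneurons in the spinal cord. OLIG2, a basic helix-loop-helix (bHLH) protein, marks the band above it, which gives somatic motor neurons and later oligodendrocyte precursors, and NKX2-2 and OLIG2 repress each other. NKX6-1 spans both bands and a further interneuron band, and its relative NKX6-2 overlaps it and later acts in myelinating cells. OLIG1 lies beside OLIG2 in the genome and acts in oligodendrocyte maturation. The remaining genes belong elsewhere: OLIG3 marks dorsal progenitors of the hindbrain and spinal cord, and NKX2-1 marks the ventral telencephalon and hypothalamus and is also made in lung and thyroid.

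The sequences just before the transcription starts of 3 of the 4 called members are shown because they differ in CG content, which is lower for Nkx2-2 than for Olig2 and Nkx6-1. RefSeq's promoter table, on build GRCm38.p6, held 6 of the 7 genes, all but Olig1. Each sequence below is the 250 bases before the start, read 5′ to 3′ on the gene's own strand, with CG dinucleotides in capitals. The Olig2 window is chr16:91225300-91225549 on the plus strand, upstream of the gene. The Nkx2-2 window is chr2:147186403-147186652 on the minus strand, and it lies within the annotated span of the gene, which includes a transcript that begins further upstream. The Nkx6-1 window is chr5:101664712-101664961 on the minus strand, upstream of the gene.
Olig2: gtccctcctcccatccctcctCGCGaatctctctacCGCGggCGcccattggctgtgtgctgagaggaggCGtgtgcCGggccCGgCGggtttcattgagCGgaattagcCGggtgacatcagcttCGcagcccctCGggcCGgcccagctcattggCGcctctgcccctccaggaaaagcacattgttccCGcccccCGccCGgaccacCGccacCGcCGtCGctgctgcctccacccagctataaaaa
Nkx2-2: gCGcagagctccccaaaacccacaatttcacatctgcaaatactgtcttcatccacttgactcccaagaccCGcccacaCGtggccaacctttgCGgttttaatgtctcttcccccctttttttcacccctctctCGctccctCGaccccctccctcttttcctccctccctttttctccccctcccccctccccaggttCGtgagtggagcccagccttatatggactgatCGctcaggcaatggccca
Nkx6-1: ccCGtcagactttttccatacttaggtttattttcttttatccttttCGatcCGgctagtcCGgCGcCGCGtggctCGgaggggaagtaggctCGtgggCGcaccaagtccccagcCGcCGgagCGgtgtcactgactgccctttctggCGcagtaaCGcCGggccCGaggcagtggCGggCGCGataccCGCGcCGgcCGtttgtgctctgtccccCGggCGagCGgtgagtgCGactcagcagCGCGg
The Olig2 window held 22 CG dinucleotides and the Nkx6-1 window 30, whereas the Nkx2-2 window held 8. Over 32851 such windows the median was 6, with quartiles of 2 and 16. Of the members that were not called, Nkx6-2 had 26, Nkx2-1 had 9 and Olig3 had 4. GC content was 66.8% for Olig2, 65.2% for Nkx6-1 and 56.4% for Nkx2-2, against a median of 52.4%. The letters GACCACCCA, the core bound by the hedgehog effectors of the GLI family, were in 0 of the 6 members' windows on either strand, and in 0.225% of all windows. AGGTCA, the core bound by retinoic acid receptors, was in 0 of 6, against 14.0% of all windows. The letters TNAAGTG, which NKX2 proteins bind, were found 1 time, in the Nkx2-2 window, and in 10.1% of all windows. TAATTA, a core shared by many homeodomain proteins, was in 0 of 6, against 4.84%. The E-box CANNTG, the general bHLH site, was found 3 times in the Nkx2-2 window, 1 time each for Olig3, Nkx2-1 and Nkx6-2, and not in those of Olig2 and Nkx6-1. It was in 66.2% of all windows.

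The signals are normalized log2 values. The cultures carried neuronal RNA: the 8 neuron markers fixed for the check, among them Tubb3 and Dcx, had group means from 9.81 to 12.45. Of these 8, 7 were lower with VPA, with a median change of -0.26, and 4, 3 and 5 were without PBS replicates 1, 2 and 3. The pluripotency genes Pou5f1, Nanog, Zfp42 and Dppa5a had means from 4.83 to 6.03. A gauge of background was taken from 1027 olfactory receptor genes, which are mostly silent outside the nose. The 95th percentile of their means was 6.05 with PBS and 6.29 with VPA, and a mean below its group's value was not told apart from background. These dim genes were themselves higher with VPA, by a median of 0.18, and 231 of them passed as higher and 2 as lower. The median over all genes was 0.0013. Centring and quantile normalization left the olfactory receptor shift at 0.18. Without VPA replicate 1 it was 0.245, and 582 of them passed as higher. The difference between groups was tested for each gene with limma over all 19938 genes, and a gene was called at a Benjamini-Hochberg adjusted p under 0.05. VPA replicate 1 lay furthest from the other arrays of its group: the median absolute difference over all genes was 0.125 and 0.132 to VPA replicates 2 and 3, which differed from each other by 0.073.

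With VPA, Olig1 and Olig2 fell, Nkx2-2 and Nkx6-1 rose, and Olig3, Nkx2-1 and Nkx6-2 did not pass the test. Thus 4 of 7 members were called, against 29.2% of all genes: 2 higher, against 13.6%, and 2 lower, against 15.7%. The groups did not overlap for 5 of the 7, against 44.0% of all genes. In 3 of these VPA was higher (20.2% of all genes) and in 2 lower (23.8%).

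Olig1 was measured at 7.76, 8.14 and 7.94 on the PBS arrays and at 6.98, 6.69 and 6.95 on the VPA arrays (log2). Every VPA array lay below every PBS array. The means were 7.95 ± 0.19 and 6.87 ± 0.16 (SD, n = 3), and the change of -1.07 (SE 0.11, 95% interval -1.32 to -0.83, adjusted p = 0.000127) is a 2.11-fold lower signal. Only 84 of the 19938 genes, Olig1 among them, had a change this low or lower.

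Olig2 was measured at 8.17, 8.49 and 8.23 with PBS and at 7.76, 7.36 and 7.21 with VPA (log2). The groups again did not overlap, with VPA replicate 1 the nearest to the PBS arrays. The means were 8.29 ± 0.17 and 7.44 ± 0.29 (SD, n = 3), a change of -0.85 (SE 0.14, 95% interval -1.17 to -0.54, adjusted p = 0.00188), or a 1.81-fold lower signal. Both falls kept their call when any 1 array was left out, with changes from -1.17 to -0.98 for Olig1 and from -1.01 to -0.73 for Olig2. Only a fit whose variances were not moderated ended the call of Olig2 (adjusted p = 0.0569), where its other alternatives gave adjusted p-values up to 0.00893. The lowest change among the 1027 olfactory receptor genes was -0.41. With a median PBS mean of 4.42 these genes lay near background and had little room to fall. They therefore do not gauge the fall of Olig2.

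**Figure D1:**
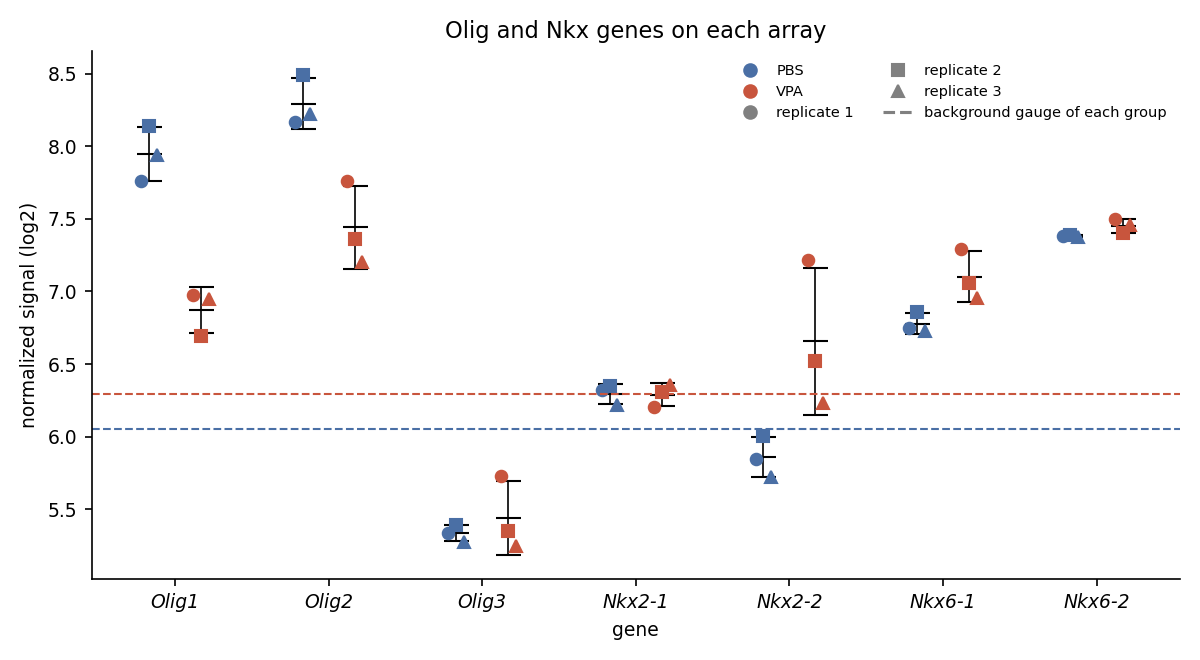
Normalized signal (log2) of the 7 genes on each array, PBS in blue and VPA in red, with group means and SDs in black and the background gauge of each group dashed. The VPA points of Olig1 and Olig2 lie below all PBS points, those of Nkx2-2 and Nkx6-1 above them, and Olig3 lies under both gauges.

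Nkx2-2 moved the other way. It was measured at 5.85, 6.00 and 5.72 with PBS, all below the PBS gauge of 6.05, and at 7.22, 6.52 and 6.23 with VPA (log2), where the gauge was 6.29. All VPA arrays lay above all PBS arrays, but VPA replicate 3 was below its gauge and VPA replicate 1 stood well above the rest. The means were 5.86 ± 0.14 and 6.66 ± 0.51 (SD, n = 3), a measured difference of 0.80 (SE 0.21, 95% interval 0.32 to 1.27, adjusted p = 0.0203). Since the PBS mean was not told apart from background, the true size of this rise is not defined. Its spread among the VPA arrays was wide: 23 genes, 0.115% of all, had a larger SD there. Without VPA replicate 1 the difference was 0.52 (adjusted p = 0.00471). The call was lost without PBS replicate 1 (adjusted p = 0.0697), without PBS replicate 3 (adjusted p = 0.0734) and with unmoderated variances (adjusted p = 0.160). Over its other alternatives the adjusted p ran from 0.00203 to 0.0393. No olfactory receptor gene rose as much as Nkx2-2 on all 6 arrays, and without VPA replicate 1, 74 of 1027 did. The part of the shift of dim genes in this result was not tested.

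Nkx6-1 was measured at 6.75, 6.86 and 6.73 with PBS and at 7.30, 7.06 and 6.95 with VPA (log2). The groups did not overlap, although VPA replicate 3 lay close to PBS replicate 2, and both means were above their gauges. They were 6.78 ± 0.07 and 7.10 ± 0.18 (SD, n = 3), a change of 0.32 (SE 0.09, 95% interval 0.12 to 0.53, adjusted p = 0.0250), or 1.25-fold. The call was lost without PBS replicate 1 (adjusted p = 0.0909) or PBS replicate 3 (adjusted p = 0.0899) and with unmoderated variances (adjusted p = 0.129), where its other alternatives gave an adjusted p of 0.00681 to 0.0471. Of the 1027 olfactory receptor genes, 159 (15.5%) rose at least as much, and without VPA replicate 1, where Nkx6-1 changed by 0.23, 551 did. The part of the shift of dim genes here was not tested either.

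Nkx6-2, the relative of Nkx6-1, had signals of 7.38, 7.39 and 7.38 with PBS and 7.50, 7.40 and 7.46 with VPA (log2). The VPA arrays were above the PBS arrays by a mean of 0.07 (SE 0.05, 95% interval -0.05 to 0.19, adjusted p = 0.380), and the gene was not called. Nkx2-1 had signals of 6.32, 6.35 and 6.22 with PBS and 6.21, 6.31 and 6.36 with VPA, groups that overlapped almost completely. Its change was -0.01 (SE 0.07, 95% interval -0.15 to 0.14, adjusted p = 0.952), and its level was at the gauge, with a PBS mean of 6.30 just above it and a VPA mean of 6.29 just below. Olig3 had 5.34, 5.39 and 5.28 with PBS and 5.73, 5.35 and 5.25 with VPA, below the gauge on every array. Only VPA replicate 1 was above the PBS values, and the change of 0.11 (SE 0.11, 95% interval -0.15 to 0.36, adjusted p = 0.534) was not called.

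**Figure D2:**
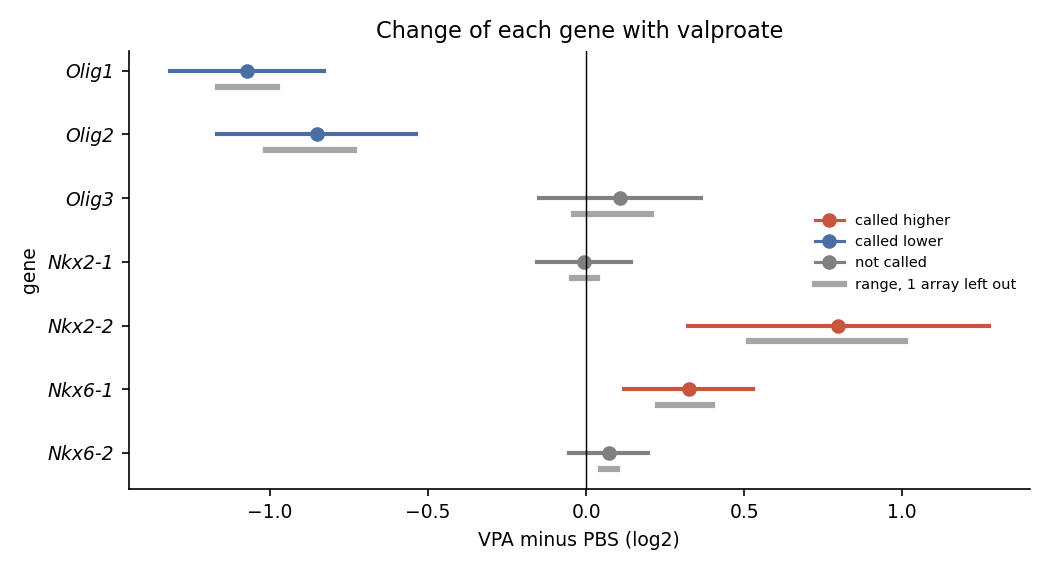
Change of each gene, VPA minus PBS (log2), as points with 95% intervals from the limma fit; the grey bars span the changes when 1 array was left out in turn. Olig1 and Olig2 lie between -1.32 and -0.54, Nkx2-2 has the widest interval, 0.32 to 1.27, and the intervals of Olig3, Nkx2-1 and Nkx6-2 include 0.

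Pairs of members were compared by their log2 difference on each array, which sets one change against another. Of the 21 pairs, 17 had differences that did not overlap between the groups. All 17 held at least 1 called member, so the count largely restates the calls. The share without overlap over all pairs of genes was not computed. Each of the 17 pairs had an exact two-sided permutation p of 0.1, the smallest that 3 arrays against 3 allow. Its adjusted p over the 21 pairs was 0.124, so no pair could pass. For Olig1 and Nkx6-1, both above the gauge in both groups, the changes differed by -1.40. Only such a shift between groups has a meaning here, not the difference on 1 array, since probe sets differ in brightness. Between the neighbours Olig1 and Olig2 the changes differed by -0.22, with overlapping groups (exact permutation p = 0.4). Between Nkx6-1 and Nkx6-2 they differed by 0.25, without overlap. Within the VPA group, 6 of 7 members, all but Nkx2-1, were highest on VPA replicate 1. That array lay furthest from the others of its group. The share of all genes that were highest on it was not computed, so this count is not a trait of the members. VPA replicate 1 exceeded the mean of VPA replicates 2 and 3 by 0.84 for Nkx2-2, 0.48 for Olig2, 0.43 for Olig3 and 0.29 for Nkx6-1.

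The genes most like the members were taken by Pearson's r over the 6 arrays, among 1972 genes above the gauge in a group with an SD of at least 0.25. These values describe 2 groups of 3 arrays and carry no p. Nearest to Olig1 were Meaf6 (r = 0.997), Fam241b (r = 0.997) and Scg2 (r = 0.997), the last encoding secretogranin II of neuronal dense-core vesicles. Nearest to Olig2 were Rnf208 (r = 0.999), Slc6a17 (r = 0.997), which encodes a synaptic vesicle amino acid transporter, and Clec2l (r = 0.996). Their changes ran from -0.58 to -0.46, smaller than those of Olig1 and Olig2. Nearest to Nkx2-2 were Slit1 (r = 0.993), an axon guidance gene, Vtn (r = 0.993), which encodes vitronectin, and Neurog1 (r = 0.991), a proneural bHLH gene. On all of these VPA replicate 1 was the highest array. Vtn went from 7.27, 7.56 and 7.33 with PBS to 9.84, 8.62 and 8.20 with VPA (log2), a change of 1.50 (SE 0.34, adjusted p = 0.00989). Nkx6-1, Nkx6-2, Nkx2-1 and Olig3 varied by an SD under 0.25 and were not matched.

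Members of the wider Nkx family did not move with Nkx2-2. Of 9 measured Nkx genes outside the 7, 0 were called higher and 0 lower, and without VPA replicate 1 there was 1 called higher. Their median change was 0.02, against 0.0013 over all genes. Over all genes 13.6% were called higher and 15.7% lower (29.2% together), the shares to set beside the counts of this list and later ones. Nkx2-4, which lies next to Nkx2-2 on chromosome 2, changed by -0.12 (SE 0.06, adjusted p = 0.169), and Nkx6-3 by 0.09 (SE 0.07, adjusted p = 0.359). All 9 had a mean above the gauge in at least 1 group. Among 11 other bHLH genes of the Olig-related families 5 rose and 2 fell, with a median of -0.02. Neurod4 and Neurog3, of neuronal and endocrine precursors, rose by 0.34 (SE 0.08) and 0.44 (SE 0.11), the latter below the gauge in both groups. Neither was called without PBS replicate 2, nor Neurod4 without PBS replicate 1 or VPA replicate 3, nor Neurog3 without PBS replicate 3. Neurod1, a neuronal differentiation factor, fell by 0.62 (SE 0.07, adjusted p = 0.000346). Neurog1 rose by 0.60 (SE 0.16, adjusted p = 0.0212). It missed the threshold when PBS replicate 1, 2 or 3 was left out (adjusted p = 0.0723, 0.0524 and 0.0695). The count of higher genes in this list was 2, 1, 1 and 3 without PBS replicates 1, 2 and 3 and VPA replicate 3, and the count of lower genes was 1 without PBS replicate 2, PBS replicate 3 or VPA replicate 2.

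Hedgehog pathway genes were given beside the members because hedgehog signalling induces both Olig2 and Nkx2-2. Of 17 measured, 7 rose and 1 fell (47.1% called, against 29.2% of all genes), with a median change of 0.15. Ptch1, which encodes the hedgehog receptor and is itself a target, was at 8.74, 8.86 and 8.76 with PBS and 10.12, 9.75 and 9.61 with VPA (log2). It rose by 1.04 (SE 0.12, adjusted p = 0.000235), as did Hhip, a target that encodes a hedgehog-binding inhibitor, by 0.97 (SE 0.07, adjusted p = 2.03e-05), and Gli1, the target that serves as a readout of the pathway, by 0.70 (SE 0.06, adjusted p = 7.24e-05). The ligand gene Shh rose from 6.93 ± 0.08 to 7.46 ± 0.17 (log2, SD, n = 3), by 0.53 (SE 0.09, adjusted p = 0.00207). No olfactory receptor gene rose as much as Ptch1 or Hhip, 1 rose as much as Gli1 and 17 (1.66%) as much as Shh. Without VPA replicate 1 the counts were 1 for Ptch1, 1 for Hhip, 21 for Gli1 and 154 for Shh. The olfactory receptor genes had a median PBS mean of 4.42. These counts therefore do not gauge the change of a gene as bright as Ptch1, at 8.79 with PBS. The fall was that of Scube2, which aids release of the ligand, at -0.28 (SE 0.06, adjusted p = 0.00834); it and the other rises lie outside the naming rule and were named after their values were seen. These were Gli2 at 0.41, Sufu at 0.24, not called without PBS replicate 3 or VPA replicate 2, and Boc at 0.26, called on all 6 arrays and without VPA replicate 3 only. Smo and Gli3, a receptor component and a GLI factor that acts mainly as a repressor, changed by 0.21 and -0.10 and were not called. Fibroblast genes rose on the same arrays, 11 of 11 with a median of 1.52. Each array holds a whole culture, so the cells in which the hedgehog genes rose are not known. The part of fibroblast-like cells in these rises was not tested. Between the groups, Olig2 was lower with VPA while hedgehog target genes and Nkx2-2 were higher. Among the VPA arrays, however, they had the same order, highest on replicate 1 and lowest on replicate 3. Relative to the PBS mean, Ptch1 was at 1.33, 0.96 and 0.82 on VPA replicates 1, 2 and 3. Nkx2-2 was at 1.36, 0.66 and 0.37, and Olig2 at -0.535, -0.934 and -1.089. A link between these genes was not tested.

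Floor plate genes that passed the test were all higher. Of 8 measured, 5 rose and 0 fell, with a median of 0.62. Ntn1, which encodes the guidance cue netrin 1, rose by 1.46 (SE 0.22, adjusted p = 0.00117), the extracellular sulfatase gene Sulf1 by 1.13 (SE 0.09), Spon1, which encodes F-spondin, by 0.75 (SE 0.15) and Foxa1 by 0.72 (SE 0.15). Foxa2, the defining floor plate factor, changed by 0.18 (SE 0.06, adjusted p = 0.0725) and was not called, nor were Ferd3l and Nkx2-9 at 0.06 each. Like Nkx2-2, the 5 genes that rose were highest within the VPA group on VPA replicate 1. Foxa2, Ferd3l and Nkx2-9 were not. Over the list, VPA replicate 1 exceeded the mean of VPA replicates 2 and 3 by a median of 0.25. Without that array 5 of 8 still rose. With unmoderated variances Ntn1, Spon1 and Foxa1 were not called (adjusted p = 0.0521, 0.091 and 0.0951). Sulf1 is also made in mesenchyme.

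**Figure D3:**
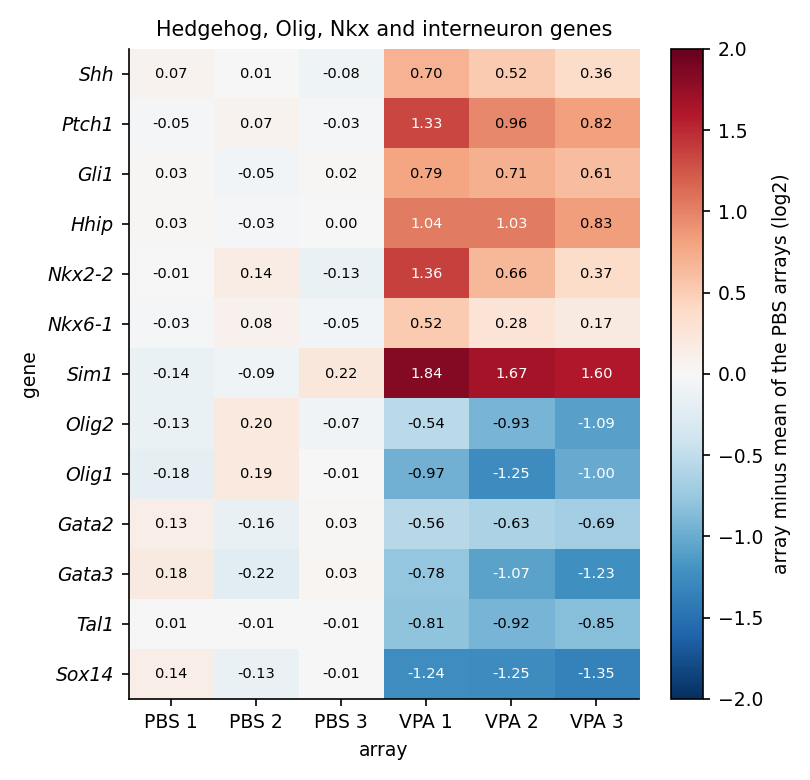
Each cell gives 1 array's signal minus the mean of the PBS arrays (log2) for the members that were called, hedgehog genes and ventral interneuron genes. On the VPA arrays Ptch1 is 0.82 to 1.33 above the PBS mean and Nkx2-2 is 0.37 to 1.36 above it, whereas Olig2 is at -1.09 to -0.54 and Sox14 at -1.35 to -1.24.

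The factors that border or oppose the ventral domains went in both directions: of 13 measured, 4 rose and 3 fell, with a median of 0.04. Pax6, which borders the Nkx2-2 domain and whose protein represses Nkx2-2, rose by 0.54 (SE 0.07, adjusted p = 0.000554). Pax7, a dorsal progenitor gene that is also strong in the dorsal midbrain, fell by 1.30 (SE 0.08, adjusted p = 7.63e-06), and Dbx1, which marks an intermediate progenitor band, fell by 0.92 (SE 0.11, adjusted p = 0.000346). Irx5 fell by 0.40 (SE 0.13, adjusted p = 0.0468), a call kept on leaving out VPA replicate 1 and lost on leaving out any other array. The count of higher genes was 2 without PBS replicate 2 or PBS replicate 3.

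Among genes of neurons that arise from these domains, the classes differed. Of 14 motor neuron genes 9 rose and 1 fell, with a median of 0.40, and 5 of the 14 were below the gauge in both groups. Among the defining genes, Mnx1 was at 5.13 ± 0.14 with PBS and 5.34 ± 0.11 with VPA (log2, SD, n = 3), and Chat at 5.59 ± 0.06 and 5.75 ± 0.15, all below the gauge and not called. Lhx3 and Isl2, above the gauge, changed by 0.04 and 0.13 and were not called (adjusted p = 0.691 and 0.137). Slc18a3, the vesicular acetylcholine transporter gene, rose by 0.61 (SE 0.13, adjusted p = 0.00738), Phox2a, of visceral motor neurons, by 0.43 (SE 0.07) and Lhx4 by 0.37 (SE 0.06), all above the gauge in both groups. The largest rises of the list were those of Tbx2 at 1.35 (SE 0.14), Aldh1a2 at 0.95 (SE 0.10), with both means below the gauge, Ret at 0.66 (SE 0.09) and Tbx3 at 0.65 (SE 0.06), genes that are also expressed in mesenchyme or neural crest. Isl1 was the gene that fell, by 0.31 (SE 0.08, adjusted p = 0.0235). This call was lost without PBS replicate 1, 2 or 3 (adjusted p = 0.0559, 0.0964 and 0.0584), which left 0 of 14 lower.

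Of 13 ventral interneuron genes 2 rose and 6 fell, with a median of 0.01. Sim1, which marks interneurons born from the Nkx2-2 domain and also the hypothalamus, was at 6.08, 6.13 and 6.44 with PBS and 8.06, 7.88 and 7.81 with VPA (log2), without overlap. It rose by 1.70 (SE 0.10, adjusted p = 8.46e-06), and no olfactory receptor gene rose as much. Foxd3, a gene of a ventral interneuron class and of neural crest, rose by 0.98 (SE 0.10). The falls included Sox14 at -1.28 (SE 0.08, adjusted p = 7.87e-06) and Gata3 at -1.02 (SE 0.13, adjusted p = 0.000430). Tal1 and Gata2, named after their values were seen, act with Gata3 in inhibitory interneurons of the spinal cord and midbrain and changed by -0.86 (SE 0.06) and -0.63 (SE 0.08). En1 and Uncx, also named after their values were seen, fell by 0.49 and 0.38.

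Serotonergic neurons of the hindbrain come from Nkx2-2 progenitors, and 5 of 10 genes of that list rose while 3 fell, with a median of 0.20. The defining genes Tph2, the enzyme of serotonin synthesis in neurons, and Slc6a4, the serotonin transporter, were called higher, by 0.23 and 0.30, but lay below the gauge in both groups, with VPA means of 5.17 and 6.17. Each call was lost on leaving out any 1 of 3 arrays: PBS replicates 1 and 2 and VPA replicate 3 for Tph2, PBS replicates 2 and 3 and VPA replicate 2 for Slc6a4. Lmx1b, named after its value was seen, was above the gauge in both groups and rose by 0.41 (SE 0.08, adjusted p = 0.00451). Its call was lost only with unmoderated variances (adjusted p = 0.0519). Slc18a2, a vesicular monoamine transporter gene, rose by 0.65 (SE 0.06), and Ddc by 0.91 (SE 0.10), the latter below the gauge in both groups. Maob, below the gauge in both groups, fell by 0.71 (SE 0.08), and Gata3 fell as given above. Without PBS replicate 2, 3 of the 10 rose.

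Olig1 and Olig2 are best known in the oligodendrocyte lineage, and the other genes of that lineage went both ways. Of 19 measured, 5 rose and 2 fell (36.8% called, against 29.2% of all genes), with a median of 0.12. Leaving out any 1 array gave the same counts. Pdgfra, the receptor gene of oligodendrocyte precursors, was at 7.98, 8.21 and 8.10 with PBS and 9.68, 9.61 and 9.63 with VPA (log2). It rose by 1.54 (SE 0.07, adjusted p = 2.09e-06), and is also a gene of mesenchymal cells. Sox10, shared by oligodendrocytes and neural crest, rose by 0.69 (SE 0.09, adjusted p = 0.000707), and Gpr17, a receptor gene of maturing precursors, by 1.01 (SE 0.09, adjusted p = 6.24e-05). Tcf7l2 fell by 0.90 (SE 0.06, adjusted p = 1.62e-05); it also marks the thalamus and midbrain. The myelin genes Mag, Mobp and Opalin were below the gauge in both groups, and Cspg4, which encodes the precursor antigen NG2, changed by 0.12 (SE 0.07, adjusted p = 0.284). Myrf, Ugt8a and Mbp were named after their values were seen. Myrf rose by 0.47 (SE 0.07, adjusted p = 0.00164) and Ugt8a by 0.40 (SE 0.08, adjusted p = 0.00501), both above the gauge in both groups. The call of Ugt8a was lost with unmoderated variances (adjusted p = 0.0549). Mbp fell by 0.31 (SE 0.06). Fibroblast genes moved on the same arrays: 11 of 11 rose, with a median of 1.52. The sum of their log2 levels ran from 87.9 to 90.7 with PBS and from 107.0 to 108.5 with VPA. Postn, Lum, Dcn and Prrx1 rose by 2.66, 2.29, 2.28 and 1.90 (SE 0.13, 0.12, 0.10 and 0.07). The part of such cells in the rise of Pdgfra was not tested. Of 12 astrocyte and radial glia genes 2 rose and 4 fell, with a median of -0.05; Hes1 and Nes rose by 0.45 (SE 0.08) and 0.38 (SE 0.09), Nes not without PBS replicate 2, while Aldh1l1 and Slc1a2 fell by 0.42 (SE 0.07) and 0.34 (SE 0.06). Without PBS replicate 2, 1 of these 12 rose.

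**Figure D4:**
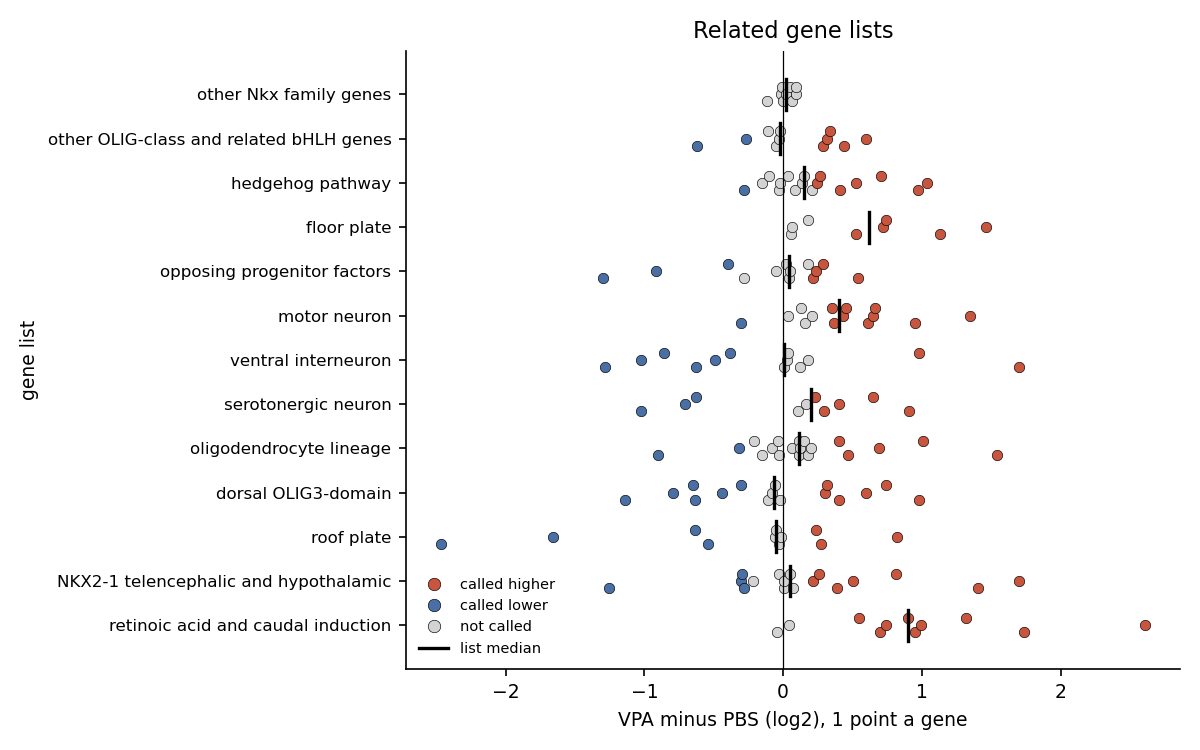
Changes, VPA minus PBS (log2), of the genes in 13 lists of neural patterning and lineage genes, 1 point a gene, with called genes in colour and list medians as black bars. The other Nkx genes lie within -0.12 to 0.09, the retinoic acid list has a median of 0.90, and the ventral interneuron list spreads from -1.28 to 1.70.

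Although Olig3 itself was below the gauge, genes of its dorsal territory were measured, and they went both ways: of 16, 6 rose and 6 fell, with a median of -0.07. Barhl2 and Lhx9, of dorsal interneurons and the forebrain, fell by 1.14 (SE 0.06) and 0.80 (SE 0.12). Foxd3 rose as given above, and Tlx3, of dorsal excitatory interneurons, rose by 0.74 (SE 0.17, adjusted p = 0.0114) but was not called without PBS replicate 1. The count of higher genes was 3 without PBS replicate 1 or PBS replicate 3. Of 11 roof plate genes 3 rose and 4 fell, with a median of -0.05. The Wnt-enhancing R-spondin genes Rspo2 and Rspo3 fell by 2.46 (SE 0.18) and 1.65 (SE 0.17), Wnt1 fell by 0.64 (SE 0.10), and Bmp7 rose by 0.82 (SE 0.11); without PBS replicate 3, 1 of the 11 rose.

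For Nkx2-1, whose level lay near the gauge, genes of the telencephalic and hypothalamic territory in which it acts went both ways. Of 17 measured, 7 rose and 4 fell, with a median of 0.05. Besides Sim1, the interneuron factor genes Dlx1 and Dlx2 rose by 1.41 (SE 0.08) and 0.82 (SE 0.10), and Fezf2, a forebrain factor gene, fell by 1.25 (SE 0.09). The count of lower genes was 2 without PBS replicate 1 or PBS replicate 2. Of the ventral telencephalic genes Lhx6 and Lhx8, which depend on NKX2-1 there and were named after their values were seen, Lhx6 rose by 0.26 (SE 0.06, adjusted p = 0.0108), a call that needed PBS replicate 2, and Lhx8 changed by -0.03 and was not called. Of 11 lung and thyroid genes 3 rose and 0 fell, so that 27.3% were called, near the 29.2% of all genes. Their median was 0.11, and 5 rose without VPA replicate 1. Below the gauge in both groups were 5 of the 11: Sftpc, Sftpd, Scgb1a1, Tg and Tshr. Sftpa1, Sftpb, Foxe1 and Slc5a5 were above it in both groups and were not called. Pax8, a thyroid gene that the midbrain-hindbrain region also uses, rose by 0.80 (SE 0.13), Tshr by 0.56 (SE 0.10) and Scgb1a1 by 0.23 (SE 0.06), the last not called without PBS replicate 1 or 2 or VPA replicate 2 or 3. The sum of this list's log2 levels was 67.1 to 67.2 with PBS and 68.9 to 69.7 with VPA.

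Nkx2-2 and Nkx6-1 are also genes of the endocrine pancreas. Of 15 pancreas, gut endocrine and endoderm genes 4 rose and 0 fell, so that 26.7% were called, near the 29.2% of all genes. Their median change was 0.09, and the sum of their log2 levels was 90.9 to 91.5 with PBS and 94.0 to 94.8 with VPA. The defining genes Pdx1, Ins2 and Sox17 were below the gauge in both groups and were not called. Gcg, which encodes proglucagon and is also made in hindbrain neurons, rose by 0.95 (SE 0.08), Gata6 by 0.53 (SE 0.06), and Foxa1 and Neurog3 as given above.

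The retinoic acid genes, given because retinoic acid from the mesoderm promotes Olig2 and Pax6 in the spinal cord, rose in 9 of 11 cases, and 0 fell, with a median of 0.90. Crabp2 and Crabp1, which encode carriers of retinoic acid, rose by 2.61 (SE 0.08) and 1.74 (SE 0.07), the retinol receptor gene Stra6 by 1.32 (SE 0.10) and the degrading enzyme gene Cyp26b1 by 0.99 (SE 0.10). Genes of other tissues outside the neural lineage were higher on the same arrays. Of 10 endothelial genes 9 rose and 0 fell, with a median of 0.54, and Cdh5, Emcn, Cldn5 and Pecam1 rose by 1.98, 1.30, 0.62 and 0.58. Of 12 striated and smooth muscle genes 10 rose and 0 fell, with a median of 0.86, Actc1, Myl1, Myl4 and Acta2 rising by 2.93, 2.31, 2.22 and 1.84. The sums of the endothelial log2 levels were 60.8 to 61.5 with PBS and 66.7 to 68.4 with VPA. Those of the muscle list were 78.6 to 79.1 and 91.0 to 95.4. The part of these genes' cell types in the members' changes was not tested.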

How the data were processed

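RNA of 6 cultures was labelled by the Affymetrix whole transcript sense target assay, per the labels' protocols. The values are normalized log2 signals that the authors deposited, 1 per probe set and array; their range, 2.50 to 13.89, is why base 2 was assumed, and the 6 medians lay between 6.99 and 7.03. The submitters' processing notes name Partek 6.5 and build mm9 without a role; how background was corrected and probes summarized is not stated in the labels. GEO's annotation of the platform names 1 gene for 21789 of 35556 probe sets, several for 1621 and none for 12146, and only those with 1 were used. Symbols were updated through Entrez IDs, matched for 21698, with RefSeq's table. Each gene was taken from its brightest probe set, which gave 19938 genes. For arrays, their number limits the precision, and no detection calls were used.

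VPA was compared with PBS by limma 3.58.1 in R 4.3.3 (lmFit, eBayes, no covariates). A check on simulated arrays of these 19938 genes, 50 changed at each size, recovered 18% of changes of 0.25, 58% of 0.5 and 100% of 1 and 2 (log2), with 4.83% of calls false. Its setting differed from the data: far fewer genes were changed than the 29.2% called here. Its errors were independent, with no outlying array such as VPA replicate 1. These rates therefore test the code and need not hold for the data. The labels number the replicates 1 to 3 in both groups. The labels do not state that these numbers pair the samples, so no block was used in the main fit. Same-numbered arrays did not deviate together (r of -0.020, -0.008 and 0.020). The members, 19 gene lists (217 of 234 genes measured) and the naming rule were chosen with earlier results of these data known. The rule named, for each list, the called genes with the largest changes, at most 4, or, failing any, the 2 of lowest p. Defining genes of a list and others beyond the rule were chosen after their values were seen. Lists are described by counts and medians, and no set test was run. Sequences and motif counts are from RefSeq's promoter table, GRCm38.p6; no coordinates were taken from the arrays.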

Additional observations from a re-analysis of the deposited data

How the results depend on the processing

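The 4 calls among the 7 genes kept their direction in every alternative in which they were tested: quantile normalization, centring, filters on dim genes, other variance models, array weights, a replicate block, the mean of probe sets and leaving out each array. With the replicate number as a block, 2592 genes were higher and 2818 lower, and the calls of the 7 genes did not change; the changes were -1.07 for Olig1, -0.85 for Olig2, 0.80 for Nkx2-2 and 0.32 for Nkx6-1. Leaving out 1 array gave 1778 to 3949 genes higher and 2058 to 4224 lower, 0 to 2 members higher and 2 of 7 lower. Both lowest counts came without PBS replicate 2. The changes then ran from -1.17 to -0.98 for Olig1, -1.01 to -0.73 for Olig2, 0.52 to 1.01 for Nkx2-2, 0.23 to 0.40 for Nkx6-1, 0.05 to 0.10 for Nkx6-2, -0.046 to 0.035 for Nkx2-1 and -0.038 to 0.20 for Olig3. Olig3 turned to -0.038 without VPA replicate 1. Nkx2-1 turned to 0.0062, 0.0196 and 0.035 without PBS replicates 1 and 2 and VPA replicate 1, and to 0.016 with array weights, where VPA replicate 1 had a weight of 0.21; none of these was called in any alternative.

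Array weights gave 4342 genes higher. At an adjusted p under 0.01, 1579 genes were higher and 1791 lower, and 0 members higher, since Nkx2-2 (0.80) and Nkx6-1 (0.32) then missed the threshold. Without moderation of the variances 1631 genes were higher, and of the members 0 were higher and 1 lower: Olig2 (-0.85), Nkx2-2 (0.80) and Nkx6-1 (0.32) lost their calls. Keeping only genes above the 50th percentile by mean signal left 1520 genes higher and, of the members, tested Olig2 alone, with 0 higher and 1 lower. The filters at the 30th percentile and at the gauge left out Olig3. With all probe sets on their own, 3190 were higher and 3450 lower. Of 304 recomputed counts of list members, 283 stayed within 1.5 times. Of 71 called genes that the rule named for lists and marker checks, 57 kept their call in every alternative that tested them. With unmoderated variances alone 5 lost it: Ntn1, Spon1, Foxa1, Pax8 and Tshr. Slc18a3 and Gli2, named beyond the rule, also lost their calls only there (adjusted p = 0.095 and 0.057). Neurog1 and Tlx3 lost theirs there too (adjusted p = 0.156 and 0.123). The ranks among olfactory receptor genes were computed after seeing the data. Signals near the gauge, those of Olig3, Nkx2-1 and Nkx2-2 with PBS, limit what can be said of these genes.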
